A study of Mus musculus with 12 samples.

Results

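Integrin and laminin genes were examined in the fetal lung epithelium for peaks of the transcription factor NKX2-1, of the related zinc-finger proteins PRDM16 and PRDM3 (encoded by Mecom), and of the histone mark H3K4me3. Members were the protein-coding RefSeq genes of chromosomes 1 to 19 named as an integrin alpha chain (Itga), an integrin beta chain (Itgb) or a laminin alpha, beta or gamma chain (Lama, Lamb, Lamc). The rule found 37 genes of 20661 protein-coding genes on these chromosomes, namely 18 alpha and 8 beta integrin genes and 11 laminin genes. It used symbols only and no measured value. All libraries came from wild-type C57Bl6 fetuses at E17.5, whose lungs were pooled and from which EpCAM-positive cells were taken with magnetic beads, at 100000 cells per reaction. CUT&RUN, a method that frees the chromatin around an antibody with a tethered nuclease, was done for NKX2-1 (3 libraries), PRDM16 (2, replicate 1 with a rabbit and replicate 2 with a sheep antibody), PRDM3 (1) and H3K4me3 (3). There is no treated or mutant group, and 3 IgG samples of the series were not analysed here. Whether replicates came from separate pools of fetuses is not stated in the labels.

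Integrins are receptors made of an alpha and a beta chain that hold cells to the matrix, and laminins are trimers of an alpha, a beta and a gamma chain that form the core of the basement membrane under an epithelium. Itga6 with Itgb4 forms the hemidesmosome receptor. Itga3 with Itgb1 is a laminin receptor of the lung epithelium, and Itga2 with Itgb1 binds collagen. Itgb6 pairs with Itgav into an epithelial receptor that releases active TGF-beta. Lama3 and Lamb3 are chains of the laminin that anchors epithelial cells, whereas the Lama5 chain pairs with Lamb1 or Lamb2 and Lamc1 in the basement membranes of mature epithelia. By textbook expression, and with earlier results of these data known, the members were put into 4 classes. The epithelial class includes Itga2, Itga3, Itga6, Itgb4, Itgb6, Lama3, Lama5 and Lamb3. The leukocyte and platelet class holds Itga2b, Itga4, Itgad, Itgae, Itgal, Itgam, Itgax, Itgb2, Itgb3 and Itgb7, and the mesenchymal class holds Itga1, Itga7, Itga8, Itga10, Itga11, Lama2 and Lama4. The other 11 (Itga5, Itga9, Itgav, Itgb1, Itgb5, Itgb8, Lama1, Lamb1, Lamb2, Lamc1, Lamc3) are broadly expressed or fit no single class.

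Promoter sequences of 4 members are shown first, because the peaks over them carry the contrasts described further on. Each is the 250 bases before a RefSeq transcript start (GRCm38.p6, the assembly of mm10), written 5′ to 3′ on the gene's strand. The Itga3 window lies under peaks of all 9 libraries, and the capitals mark a match to the ETS motif CCGGAAG, 89 bases before the start. Itgb6 has 2 RefSeq starts. Its internal start lies under H3K4me3 in all 3 libraries, its outer start lies under no peak of any library, and the capitals in the internal window mark a match to the NKX2-1 core CACTNNAG, 163 bases before that start. The Lamb3 window lies under peaks of 7 libraries. Itga2b, a platelet integrin, is the first leukocyte and platelet member in alphabetical order whose window lies under no peak. The Itgb6 and Lamb3 windows were chosen after their values were seen.
Itga3 promoter (chr11:95076715-95076964, minus strand): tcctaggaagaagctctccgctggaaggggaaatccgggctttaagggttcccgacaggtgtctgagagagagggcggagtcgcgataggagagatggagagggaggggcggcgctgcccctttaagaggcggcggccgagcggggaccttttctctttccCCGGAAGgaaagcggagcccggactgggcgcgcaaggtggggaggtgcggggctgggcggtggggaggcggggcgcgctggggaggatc
Itgb6 internal promoter (chr2:60673694-60673943, minus strand): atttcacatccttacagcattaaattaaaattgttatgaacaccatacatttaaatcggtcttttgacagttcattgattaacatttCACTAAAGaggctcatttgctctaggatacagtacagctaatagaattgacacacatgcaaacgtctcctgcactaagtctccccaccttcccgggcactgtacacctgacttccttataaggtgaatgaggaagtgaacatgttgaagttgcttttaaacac
Itgb6 outer promoter (chr2:60722604-60722853, minus strand): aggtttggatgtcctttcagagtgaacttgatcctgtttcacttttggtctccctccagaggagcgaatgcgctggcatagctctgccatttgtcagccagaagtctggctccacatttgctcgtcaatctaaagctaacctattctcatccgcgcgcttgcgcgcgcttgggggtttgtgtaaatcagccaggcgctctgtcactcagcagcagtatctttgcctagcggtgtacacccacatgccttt
Lamb3 promoter (chr1:193301744-193301993, plus strand): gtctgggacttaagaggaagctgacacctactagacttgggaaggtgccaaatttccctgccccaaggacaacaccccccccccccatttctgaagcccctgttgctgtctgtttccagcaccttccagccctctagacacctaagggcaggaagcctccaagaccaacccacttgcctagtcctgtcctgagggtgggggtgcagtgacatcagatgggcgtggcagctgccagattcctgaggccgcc
Itga2b promoter (chr11:102469884-102470133, minus strand): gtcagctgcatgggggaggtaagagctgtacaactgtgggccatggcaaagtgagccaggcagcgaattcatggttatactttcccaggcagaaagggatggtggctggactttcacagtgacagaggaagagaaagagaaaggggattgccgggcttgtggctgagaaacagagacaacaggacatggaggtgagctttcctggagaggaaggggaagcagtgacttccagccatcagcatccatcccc
Motifs were searched on both strands of 20084 such 250-base windows of 16456 genes. CACTNNAG was found in 12.0% of all windows and in 1 of the 26 windows of members, the internal Itgb6 window. CCGGAAG was found in 9.21% of all windows and in 1 member window, that of Itga3. The motif AGATAA, which holds the core of GATA factor sites, was found in 8.72% and in 1 member window, that of Itgax. A match describes the letters of a window only.

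The libraries differed in how many peaks they held and how strong these were. The factor lists held between 52283 and 111489 peaks and the H3K4me3 lists between 14646 and 19117. NKX2-1 replicate 1 had a median fold enrichment of 4.03 (the authors' ratio of peak signal to background), against 2.44 and 2.40 in replicates 2 and 3, and 12964 of its peaks reached a −log10 q of 5, against 668 and 1182. A q under 0.05 was reached by 76.4%, 10.8% and 12.9% of the peaks of NKX2-1 replicates 1, 2 and 3. For PRDM16 replicates 1 and 2 and PRDM3 the shares were 44.5%, 45.0% and 42.3%. Many NKX2-1 regions thus rest in part on weak peaks of replicates 2 and 3. Read depth is unknown from peak lists. H3K4me3 lay within 1 kb of a gene end at 6 of 6 epithelial marker genes, 1 of 6 leukocyte (Spi1), 3 of 6 mesenchymal (Col1a1, Col1a2, Twist1) and 1 of 6 endothelial marker genes (Kdr). Over all genes the share was 57.1%. In replicates 1, 2 and 3 taken singly, the mark was at 4, 3 and 1 mesenchymal marker genes. At endothelial marker genes the numbers were 3, 1 and 1, and at leukocyte ones 2, 1 and 1. All 6 epithelial marker genes had it in each library, against 60.2%, 57.3% and 55.7% of all genes. Signal from other cells among those captured, and its part in the results, was not tested. In a pool of cells, a weak peak in many cells and a strong peak in few cannot be told apart.

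The epithelial members had regions of all 3 factors more often than the leukocyte, platelet and mesenchymal members did. A region is a stretch covered in at least 2 of 3 NKX2-1 or H3K4me3 libraries, in both PRDM16 libraries or in the PRDM3 library, and it was linked to the gene whose end lay nearest, within 50 kb. NKX2-1 regions were linked to 9 of 9 epithelial members, 8 of 11 broad members, 2 of 10 leukocyte and platelet members (Itga2b and Itgae) and 2 of 7 mesenchymal members (Itga1 and Itga7). Over all genes 52.2% had one, and over all members 21 of 37 did. Without NKX2-1 replicate 1 the class counts were 5 of 9 epithelial (Itga3, Itga6, Itgb4, Lama3 and Lama5), 6 of 11 broad, 0 of 10 leukocyte and platelet and 0 of 7 mesenchymal members, against 31.8% of all genes. PRDM16 regions were linked to 27 of 37 members against 60.6% of all genes, with 8 of 9 epithelial members, all but Itga2, 10 of 11 broad, 4 of 7 mesenchymal and 5 of 10 leukocyte and platelet members. PRDM3 regions were linked to 32 of 37 against 68.6%, with 9 of 9 epithelial, 11 of 11 broad, 5 of 7 mesenchymal and 7 of 10 leukocyte and platelet members. For PRDM16 and PRDM3 the broad members thus stood level with the epithelial ones. A region shared by all 3 factors (an NKX2-1 region that overlaps both a PRDM16 and a PRDM3 region) was linked to 14 of 37 members, against 36% of all genes. The full list was therefore near the background for shared regions, and the classes within it were not alike. Shared regions were linked to 7 of 9 epithelial members, 5 of 11 broad members, 1 of 10 leukocyte and platelet members and 1 of 7 mesenchymal members. Each class count is a description of few genes and was not tested.

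**Figure D1:**
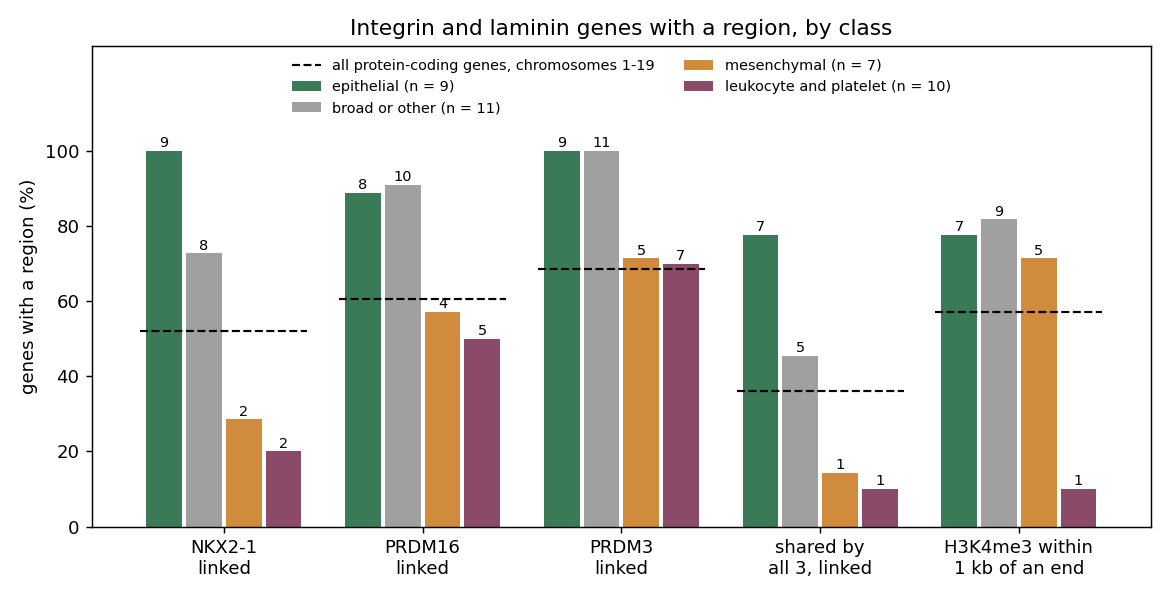
Percentage of the genes of each class (bars, with the number of genes above each) that had a linked NKX2-1, PRDM16, PRDM3 or shared region, or H3K4me3 within 1 kb of a gene end. Dashed lines give the share over all 20661 genes. Shared regions were linked to 7 of 9 epithelial but 1 of 10 leukocyte and platelet genes.

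Gene length bears on these counts, since long genes can hold more regions. The members had a median length of 62.5 kb against 17.49 kb for all genes. The epithelial members spanned 32.4 to 249.6 kb, and of all 6089 genes in that range 68.3% had an NKX2-1 region, 77.3% a PRDM16 region, 86.2% a PRDM3 region, 50% a shared region and 68.5% H3K4me3 within 1 kb of an end. The leukocyte and platelet members spanned 16.6 to 77.7 kb, a range in which 62.2% of 7549 genes had an NKX2-1 region, 71% a PRDM16 region, 79.6% a PRDM3 region, 43.8% a shared region and 66.7% H3K4me3. The mesenchymal members, from 18.9 to 635.9 kb, were the longest class by median, and 65.5% of the 9744 genes of that range had an NKX2-1 region, 74.3% a PRDM16 region, 83.5% a PRDM3 region, 46.7% a shared region and 67.7% H3K4me3. In the 10.7 to 294.3 kb range of the broad members, 62.9% of 12402 genes had an NKX2-1 region, 71.8% a PRDM16 region, 79.9% a PRDM3 region, 44.4% a shared region and 66.7% H3K4me3. When a region inside a gene was linked to that gene at any distance from its ends, NKX2-1 regions were linked to 23 members (52.9% of all genes), PRDM16 to 27 (60.5%), PRDM3 to 33 (68.3%) and shared regions to 15 (36.6%). Itga9 and Lama4 were added for NKX2-1, Itgad for PRDM3 and Itga9 for shared regions.

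Peak numbers also differed between the classes. Summed over the 6 factor libraries, the epithelial members had a median of 42 linked peaks (12 to 75), the broad members 27 (7 to 120), the mesenchymal members 13 (7 to 63) and the leukocyte and platelet members 10 (3 to 17). The median was 16 over all members and 10 over all genes. Lamc1, the gamma chain of most laminin trimers, had 120 peaks and ranked 11 of 20661 genes. Itgb6 had 75 (rank 145), Itga6 67 (rank 236), Lamb1 66 (rank 255) and Itga11 63 (rank 306). Itgad and Itgax, alpha chains of myeloid cells, had 3 each. Library by library, at least 1 NKX2-1 peak was linked to 32, 30 and 33 members in replicates 1, 2 and 3, against 69.6%, 72.6% and 78.5% of all genes. PRDM16 peaks of replicates 1 and 2 were linked to 37 and 34 members, against 82.8% and 73.1%, and H3K4me3 peaks of replicates 1, 2 and 3 to 30, 26 and 25 members, against 60.6%, 57% and 55.2%. The epithelial and leukocyte ranges overlapped only through the epithelial members with the fewest peaks, Itga2 with 12 and Itgb4 with 14.

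**Figure D2:**
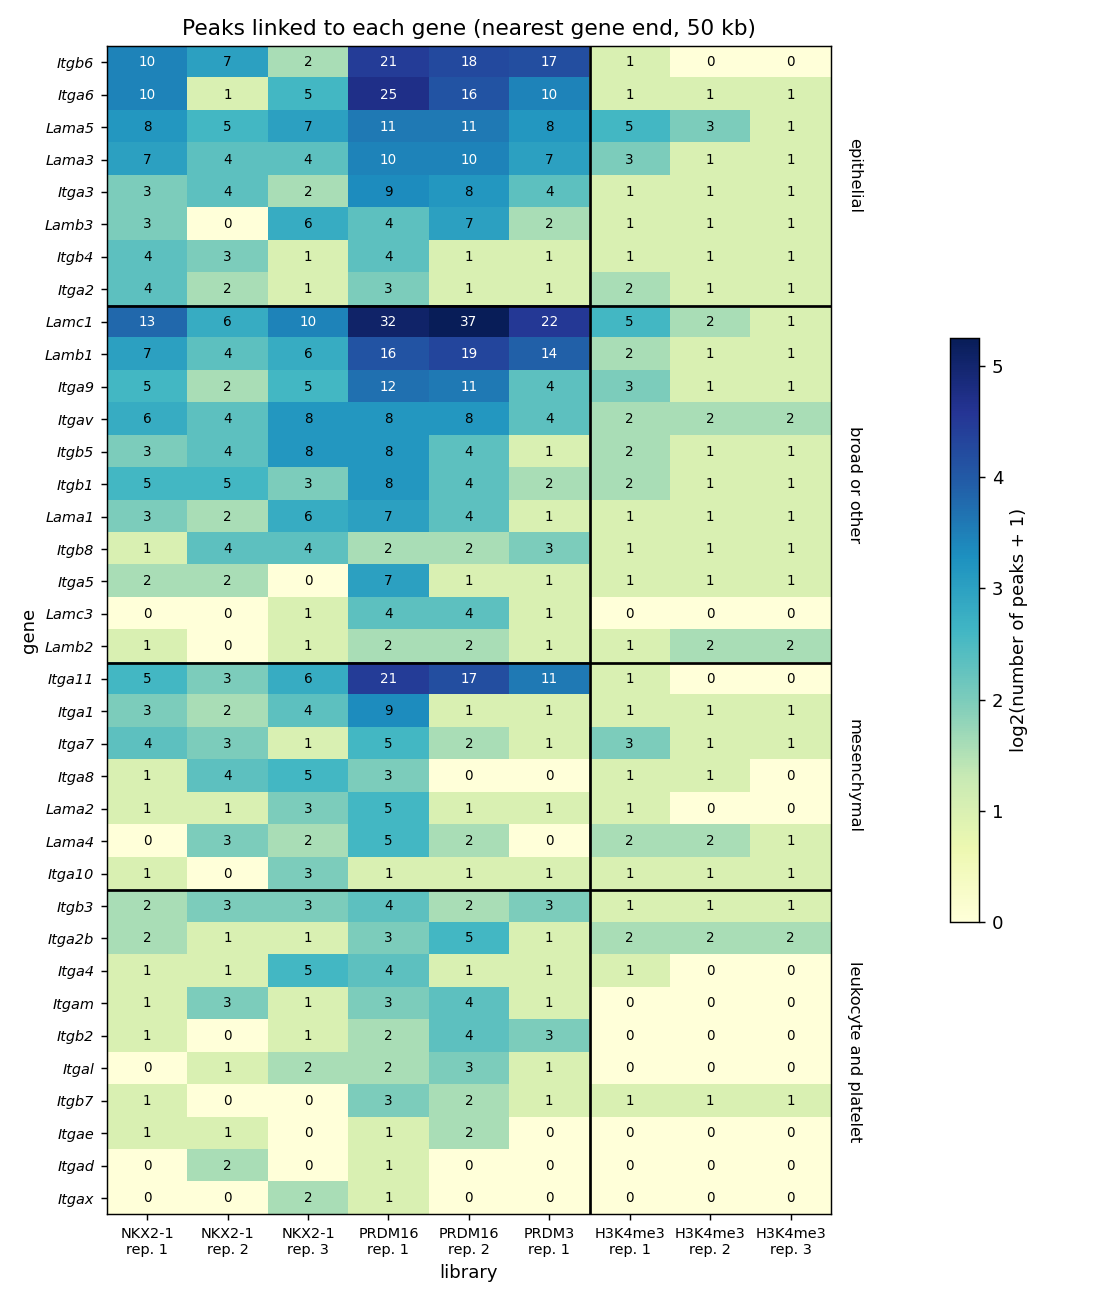
Number of peaks of each library (columns) linked to each gene (rows, by class and by the total over the 6 factor libraries). Colour gives log2 of the number plus 1. Lamc1 (120), Itgb6 (75), Itga11 (63) and Itgb3 (17) have the highest totals of their classes among the 36 genes plotted.

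H3K4me3, a mark of active promoters, was at most epithelial and broad members and at few leukocyte and platelet members. It lay within 1 kb of an annotated gene end at 22 of 37 members against 57.1% of all genes, with 7 of 9 epithelial, 9 of 11 broad, 5 of 7 mesenchymal and 1 of 10 leukocyte and platelet members. With RefSeq promoter windows (250 bases before to 50 after a start) counted as well, it was found at 9 of 9 epithelial members, 10 of 11 broad members, 5 of 7 mesenchymal members and still 1 of 10 leukocyte and platelet members, against 60.1% of all genes. The member added to the broad class was Itgav, and those added to the epithelial class were Itgb6 and Lamb3. Of the 23 members with a window in the RefSeq table, 13 had H3K4me3 over it, against 57.9% of all genes with one. These were 5 of 5 epithelial, 7 of 8 broad, 1 of 5 mesenchymal and 0 of 5 leukocyte and platelet members. Over the same windows, NKX2-1 regions were found at 7 of 23 members against 41% of genes, PRDM16 regions at 9 against 45.6% and PRDM3 regions at 7 against 41.9%.

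Among the epithelial integrins, Itga6 had H3K4me3 fold enrichments of 21.9, 57.1 and 49.7 in replicates 1, 2 and 3, and Itga3 of 25.1, 49.9 and 34.7. Itgb4, the hemidesmosome beta chain, had 8.20, 12.8 and 8.93, and Itga2 had 10.3, 11.0 and 7.27. Itgb6 had 15.1, 44.4 and 31.6 at its internal start. In each library Itgb4 and Itga2 thus lay below Itga3, Itga6 and Itgb6, although Itgb4 is the partner of Itga6. Among the epithelial laminins, Lama3 had 23.5, 71.8 and 59.1 and Lama5 had 23.8, 69.1 and 58.2. Lamb3 had 11.0, 19.1 and 13.1. Lama3 was therefore above its partner chain Lamb3 in every library. Fold enrichments of replicate 1 ran on a lower scale than those of replicates 2 and 3, with list medians of 14.0, 29.8 and 26.2, so values are set side by side within a library only.

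The mesenchymal members with H3K4me3 lay mostly lower. Their highest peaks had a median fold enrichment of 10.7, 6.08 and 7.90 over the members with a peak in replicates 1, 2 and 3, against 15.4, 44.4 and 34.7 in the epithelial class and 19.1, 42.1 and 36.1 in the broad class. Itga1, which binds collagen, had 22.4, 12.5 and 11.1. Itga8, known from mesenchyme around forming alveoli, had 4.94 and 5.47 and no peak in replicate 3. Itga11 and Lama2 had a peak in replicate 1 only, of 10.7 and 5.71. At Itga10 the mark (5.64, 6.08 and 7.56) stood at the end away from its RefSeq start, and no peak of any library covered its promoter window. Among the leukocyte and platelet members, Itgb3, the beta chain that pairs with Itga2b on platelets and with Itgav elsewhere, had 12.9, 16.4 and 9.62, and Itga4 had 5.48 in replicate 1 only. The other 8 had no H3K4me3 peak within 1 kb of an end or over a promoter window in any library.

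**Figure D3:**
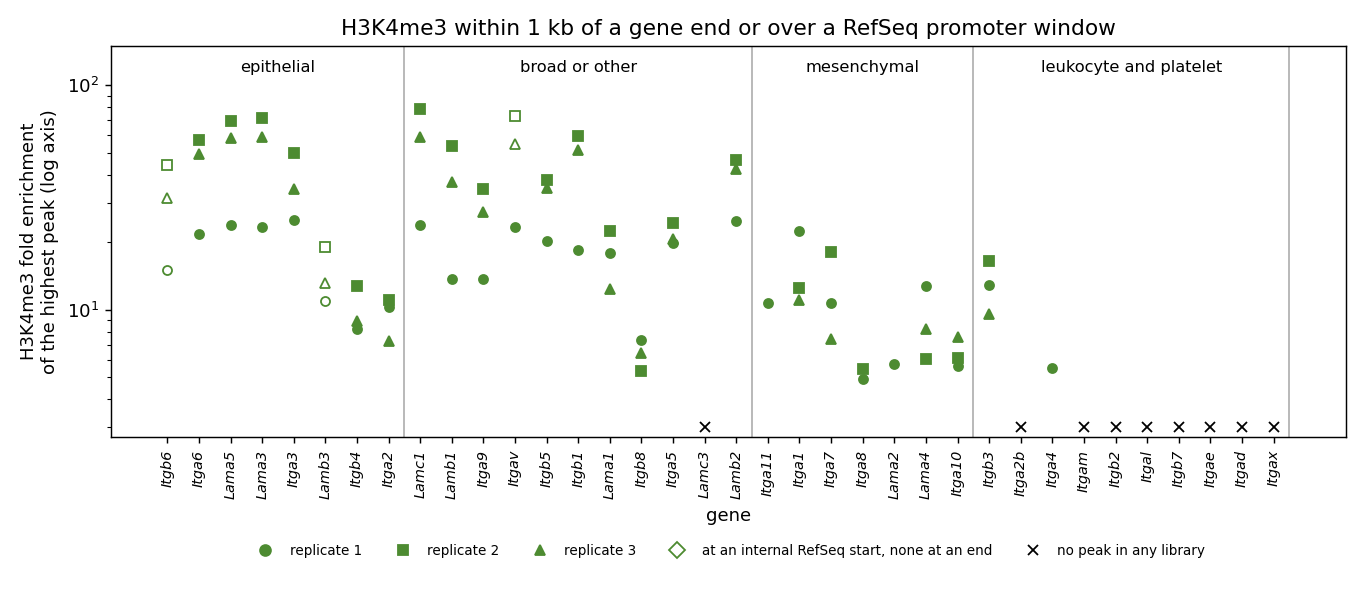
Fold enrichment (log axis) of the highest H3K4me3 peak within 1 kb of a gene end or over a RefSeq promoter window, per gene and library. Open symbols are peaks at an internal start with none at an end, and crosses are genes with no peak in any library. The 8 epithelial genes plotted have a peak in every library, and 8 of the 10 leukocyte and platelet genes have none.

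At the promoter of Itga3, shown above, all 3 factors met under H3K4me3. The shared region (chr11:95076218-95077171, GRCm38 coordinates, its midpoint 150 bases inside the gene) had NKX2-1 fold enrichments of 9.51, 4.86 and 4.77 in replicates 1, 2 and 3. PRDM16 had 21.1 with the rabbit and 7.22 with the sheep antibody, and PRDM3 had 11.4. The rabbit PRDM16 peak stood at percentile 99.7 of its list and the PRDM3 peak at percentile 99.5. The shared region of Itga6, 684 bases inside the gene, had NKX2-1 values of 8.91, 6.18 and 3.18, PRDM16 values of 8.76 and 4.05 and a PRDM3 value of 8.27. Just outside Itgb4 (116 bases), NKX2-1 had 7.44, 6.51 and 5.59, PRDM16 had 7.96 and 4.56, and PRDM3 had 5.60. These 3 regions had a peak of each of the 6 factor libraries. Itga2, which shared no region, had NKX2-1 peaks of 6.04 and 3.09 in replicates 1 and 2 and a PRDM16 peak of 4.90 in replicate 1 at its promoter, with no PRDM3 peak there.

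Epithelial laminin genes also held shared regions, near gene ends and farther inside. Lama3 had a shared region 717 bases inside the gene with NKX2-1 values of 7.04, 2.44 and 3.20, PRDM16 values of 10.2 and 3.73 and a PRDM3 value of 3.89. The NKX2-1 peaks of replicates 2 and 3 there had a −log10 q of 0.06 and 0.76. A further Lama3 region 31347 bases inside, under no H3K4me3 peak, had NKX2-1 values of 3.98 and 2.85 in replicates 1 and 3, PRDM16 values of 4.89 and 9.35 and a PRDM3 value of 7.25. Lama5 had shared regions 3249 bases inside and 9462 bases outside the gene. The former lay under H3K4me3 in all 3 libraries and had NKX2-1 values of 11.2, 3.26 and 4.79, PRDM16 values of 10.1 and 5.05 and a PRDM3 value of 2.99. Its 11.2 was the highest of NKX2-1 replicate 1 at any member. The latter had NKX2-1 values of 5.18, 4.07 and 3.20, PRDM16 values of 7.54 and 10.0 and a PRDM3 value of 4.86, with an H3K4me3 peak of 4.23 in replicate 1 only.

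A factor region is said to lie outside H3K4me3 where no peak of any of the 3 H3K4me3 libraries overlapped it. Of the 12 shared regions of epithelial members, 5 lay outside H3K4me3 (41.7%), against 18.1% of the 10575 shared regions linked to all genes. Itgb6 held 2 of these and Lama3 held 1. Over all members 6 of 21 lay outside H3K4me3. Of these 6, the region that belongs to another class was 34421 bases outside Lamc1. With H3K4me3 counted only where at least 2 of 3 libraries had it, 6 of 12 epithelial and 8 of 21 member regions lay outside it, against 22.5% over all genes. Gene length was not taken into account in any of these shares. The regions added were that 9462 bases outside Lama5 and one 6091 bases inside Lamb1, each with an H3K4me3 peak in replicate 1 only. At least 2 shared regions were linked to 6 members against 9.89% of all genes. Among them were Itgb6, Lama3 and Lama5 of the epithelial class and Lamb1 and Lamc1 of the broad class.

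**Figure D4:**
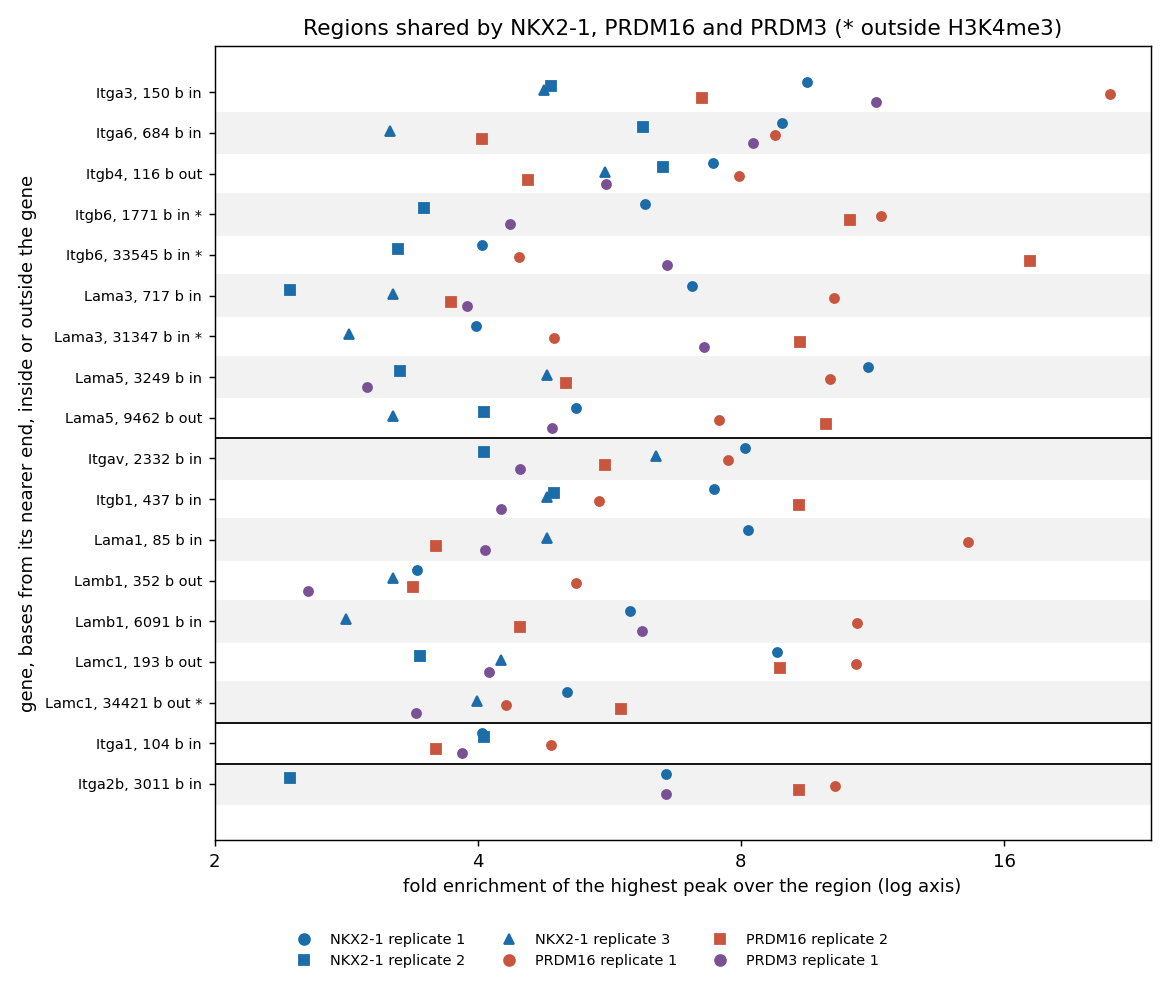
Fold enrichment (log axis) of the highest peak of each factor library over each of 18 shared regions, with the distance of the region from the nearer gene end in bases, inside (in) or outside (out) the gene. Lines part the classes, from epithelial at the top to leukocyte and platelet at the bottom, a star marks a region under no H3K4me3 peak of any library, and a missing symbol means no peak. The PRDM16 replicate 1 peak over the Itga3 promoter, at 21.1, lies farthest to the right.

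Itgb6 had the second highest number of factor peaks among the members, and none of them covered its outer start. No peak of any library covered its outer promoter window, whose sequence is given above. At the internal start, 48910 bases downstream, H3K4me3 was joined by PRDM16 peaks of 5.02 and 3.50 and an NKX2-1 peak of 6.11 in replicate 1, with no peak of NKX2-1 replicates 2 and 3 over the window. A PRDM3 peak of 3.58 lay just downstream of the window, 49212 to 49881 bases from the outer start, under H3K4me3 of all 3 libraries. Both shared regions of Itgb6 lay between the 2 starts and outside H3K4me3. That 1771 bases inside the gene had NKX2-1 values of 6.22 and 3.47, PRDM16 values of 11.6 and 10.7 and a PRDM3 value of 4.36. That 33545 bases inside had NKX2-1 values of 4.04 and 3.24, PRDM16 values of 4.46 and 17.1 and a PRDM3 value of 6.59. NKX2-1 replicate 3 had no peak in either. In all, 16 PRDM16 and 17 PRDM3 regions but 2 NKX2-1 regions were linked to Itgb6, and 14 of the PRDM16 and 16 of the PRDM3 regions lay outside H3K4me3. Single NKX2-1 peaks linked to Itgb6 numbered 10, 7 and 2 in replicates 1, 2 and 3. The sheep PRDM16 library had wide peaks along the gene, among them peaks of 5077 and 3812 bases with fold enrichments of 8.10 and 10.9. The 50 kb limit touched this gene. The H3K4me3 peak of replicate 1 at the internal start was linked to Itgb6 and those of replicates 2 and 3 were not, and a further region of all 3 factors 51860 bases from the gene end opposite the outer start lay just beyond the limit, with NKX2-1 values of 7.04 and 2.44, PRDM16 values of 6.81 and 11.7 and a PRDM3 value of 3.40.

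Lamb3 showed a like arrangement over a shorter distance. Its RefSeq starts lie 7641 and 7890 bases inside the annotated gene, and H3K4me3 stood there and not at the gene end. PRDM16 peaks of 9.80 and 14.0, a PRDM3 peak of 8.05 and an NKX2-1 peak of 7.29 in replicate 1 covered the same window. NKX2-1 replicate 2 had no peak linked to Lamb3 at all, and replicate 3 had its nearest peak just upstream of the window, so Lamb3 has no shared region by the rule of at least 2 NKX2-1 libraries. Its NKX2-1 region lay 15486 bases inside the gene, where replicates 1 and 3 had 4.46 and 3.02. Its partner chain Lama3 had 2 shared regions.

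**Figure D5:**
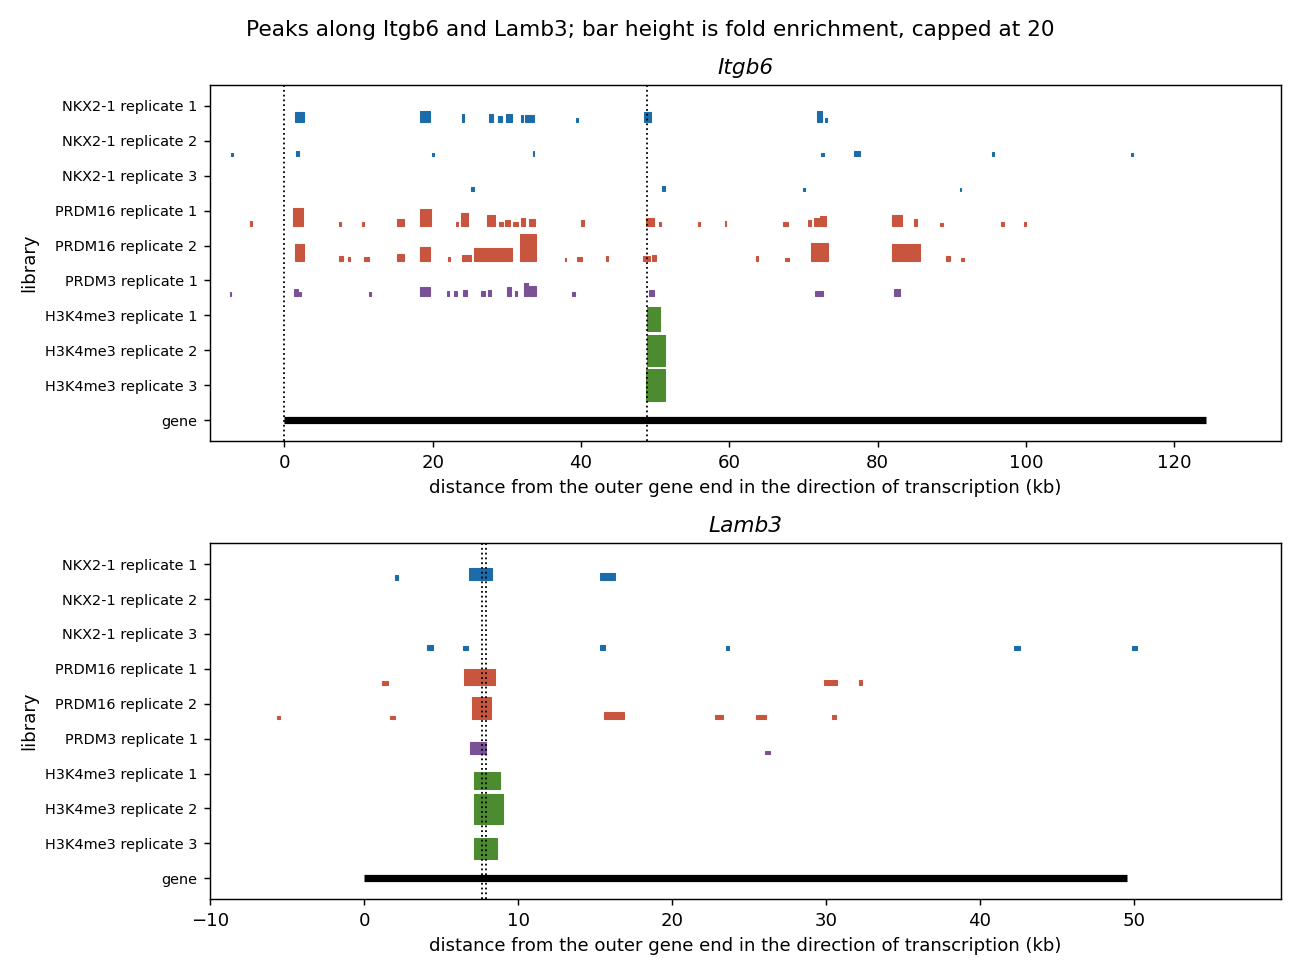
Peaks of each library along Itgb6 and Lamb3 by distance from the outer gene end in kb (below 0 is upstream), with bar height giving fold enrichment up to 20, dotted lines at RefSeq starts of the promoter table and a black bar for the annotated gene. H3K4me3 stands at the start 48910 bases inside Itgb6 and at the starts of Lamb3, and the PRDM16 and PRDM3 peaks of Itgb6 spread over the gene.

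The broad members include the partners of the epithelial chains. Itgb1, the common beta chain, had a shared region 437 bases inside the gene with NKX2-1 values of 7.46, 4.88 and 4.79, PRDM16 values of 5.51 and 9.33 and a PRDM3 value of 4.26, under H3K4me3 of 18.5, 59.6 and 51.5. Itgav, the partner of Itgb6, had its shared region 2332 bases inside, over an internal RefSeq start 2094 bases from the gene end, with NKX2-1 values of 8.09, 4.07 and 6.39, PRDM16 values of 7.74 and 5.60 and a PRDM3 value of 4.47. H3K4me3 there was 23.5, 73.0 and 54.9. Lamc1 had 8 NKX2-1, 18 PRDM16 and 22 PRDM3 regions, the highest number of each among the members. Its shared region 193 bases outside the gene had NKX2-1 values of 8.79, 3.44 and 4.25, PRDM16 values of 10.8 and 8.86 and a PRDM3 value of 4.12. Lamb1 had 3, 9 and 14 regions, and Lama1, the laminin alpha chain of early embryonic basement membranes, had a shared region 85 bases inside the gene. Lamb2, which can take the place of Lamb1, had H3K4me3 of 25.0, 35.3 and 22.1 over its promoter window but no linked NKX2-1 region. Its other end lies 77 bases from Usp19, and the higher H3K4me3 values of 46.4 and 42.2 plotted for Lamb2 in replicates 2 and 3 stand there. NKX2-1 peaks of 6.57, 5.70 and 3.02 in replicates 1, 2 and 3 lay within 1 kb of that end but were not linked to Lamb2. Lamc3 had no linked NKX2-1 or PRDM16 region, no H3K4me3 region within 1 kb of an end, and 1 linked PRDM3 region. PRDM16 peaks of 6.29 and 3.78 in replicates 1 and 2 reached to within 1 kb of its upper end. That end lies 1220 bases from Aif1l, and no PRDM16 region there was linked to Lamc3. Within 5 kb of an end, Lamc3 did have H3K4me3.

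At Itga2b, Itgb7 and Itgae, of the leukocyte and platelet class, the strongest peaks lay inside the genes and away from their ends. The shared region of Itga2b lay 3011 bases inside the gene, with NKX2-1 values of 6.57 and 2.44 in replicates 1 and 2, PRDM16 values of 10.2 and 9.33 and a PRDM3 value of 6.58, over H3K4me3 of 12.9, 12.2 and 9.89. The NKX2-1 replicate 2 peak, without which the region would not count as shared, had a −log10 q of 0.06 and the median fold enrichment of its list. The Itga2b promoter window shown above had no peak of any library. At Itgb7, a lymphocyte beta chain, a PRDM16 peak of 20.3 in replicate 1 (percentile 99.6 of its list) lay 8705 bases inside the gene, with H3K4me3 of 14.9, 10.3 and 12.4 and an NKX2-1 peak of 6.40 in replicate 1 only. Itgae, the chain of lymphocytes within epithelia, had NKX2-1 peaks of 5.37 and 3.26 and PRDM16 peaks of 5.76 and 3.55 near a position 3441 bases inside, and no H3K4me3. None of the 5 leukocyte and platelet members with a RefSeq promoter window had a region of any factor over it. Itgb3, the member of the class with H3K4me3 at an end, has no such window. At that end PRDM16 had peaks of 5.02 and 6.30 and PRDM3 a peak of 6.11. NKX2-1 had peaks of 4.07 and 2.44 there in replicates 1 and 2, without an NKX2-1 region. Itgad and Itgax had no linked region of any factor, nor did Itga8 and Lama4 of the mesenchymal class. These make 4 of 37 members, against 23.1% of all genes. When a region inside a gene was linked to it at any distance, Itgad had a PRDM3 region and Lama4 an NKX2-1 region.

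In the mesenchymal class, Itga11, a fibroblast collagen receptor, stood out by PRDM16 and PRDM3. It had 10 PRDM16 and 11 PRDM3 regions and no NKX2-1 region, and 9 and 11 of these lay outside H3K4me3. The remaining PRDM16 region lay over an H3K4me3 peak of replicate 1 only. Single NKX2-1 peaks linked to Itga11 numbered 5, 3 and 6 in replicates 1, 2 and 3. Its highest peak was PRDM16 of replicate 1 with a fold enrichment of 15.1, 38988 bases inside the gene, where PRDM16 replicate 2 had 8.29 and NKX2-1 replicate 1 had 8.32. Itga1 had the only shared region of the class, 104 bases inside its upper end, with NKX2-1 values of 4.04 and 4.07 in replicates 1 and 2, PRDM16 values of 4.85 and 3.59 and a PRDM3 value of 3.84. These are lower than the values of the Itga3 promoter in every library that had a peak. A further region of all 3 factors inside Itga1 was nearest to Pelo, whose end lies 11806 bases from that end of Itga1, and was linked to Pelo.

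PRDM16 and PRDM3 regions of members lay outside H3K4me3 more often than those of all genes did, and over NKX2-1 less often, as shares without a test. Of 118 PRDM16 regions at members 68.6% lay outside H3K4me3, against 52.4% of the regions linked to all genes, and 23.7% lay over an NKX2-1 region, against 39.8%. Of 138 PRDM3 regions 74.6% lay outside H3K4me3, against 59.5%, and 20.3% lay over NKX2-1, against 31.8%. With H3K4me3 in at least 2 of 3 libraries, 72.9% of the PRDM16 and 79.7% of the PRDM3 regions of members lay outside it, against 58.4% and 64.0% over all genes. PRDM16 regions lay over PRDM3 regions in 55.1% of cases at members and 54.1% at all genes. Lamc1, Itgb6, Itga11, Lamb1 and Itga6 held most of these regions, so the shares rest on few genes. Gene length was not taken into account in these shares, and the members are longer by median than all genes. Itga6 alone had 8 PRDM16 and 10 PRDM3 regions beside a single NKX2-1 region. The rules differ, since an NKX2-1 region needed at least 2 libraries and a PRDM3 region its only library. NKX2-1 replicates 1, 2 and 3 had 10, 1 and 5 peaks linked to Itga6.

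Genes that act with these members were taken from lists chosen with earlier results of these data known. Of 15 integrin adaptors inside the cell, NKX2-1 regions were linked to 12, PRDM16 and PRDM3 regions to 14 each, shared regions to 8, and 14 had H3K4me3 within 1 kb of an end. Over all genes the shares were 52.2% for NKX2-1, 60.6% for PRDM16, 68.6% for PRDM3, 36% for shared regions and 57.1% for H3K4me3. Fermt3, the kindlin of blood cells, lacked all of these, whereas its relatives Fermt1 and Fermt2 had H3K4me3 and regions of all 3 factors, which overlapped as a shared region at Fermt2 and not at Fermt1. Of 15 partners in the basement membrane and hemidesmosome, 14 had NKX2-1, 12 PRDM16 and 15 PRDM3 regions, 12 had a shared region and 12 had H3K4me3, beside the same shares over all genes. For both lists, shares over genes of like length were not computed, although gene length bears on such counts. Nidogen Nid2, perlecan Hspg2, agrin Agrn and the collagen chains Col4a1, Col4a2, Col4a3 and Col4a4 were among those with a shared region. Col17a1, a hemidesmosome collagen, had a PRDM3 region only.

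The counts of factor regions were lower with stricter lists. With peaks of −log10 q of at least 5 in every list, NKX2-1 regions were left at 2 members, Itgb4 and Itgav, against 6.31% of all genes, and shared regions at 0 against 2.74%. PRDM16 regions were left at 11 members against 25.6% and PRDM3 regions at 11 against 16.3%, of which 5 and 6 were epithelial. H3K4me3 was at 22 members against 56.8%. Without NKX2-1 replicate 1 the epithelial members with a shared region numbered 4 and all such members 7, against 22.1% of all genes. With NKX2-1 replicate 1 alone all such members numbered 24, against 44.7%.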

How the data were processed

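Peak lists of 9 of the 12 samples were used, 1 list per sample. Per the submitters' processing notes, which carry no versions, Trimmomatic, Bowtie2, MACS2, HOMER and mm10 were used. Use of a control in peak calling is not stated. The fold enrichment deposited with each peak is a ratio, the authors' own value, used only to describe, rank or filter within a list. The score and the −log10 p and q of each peak are likewise as deposited. From the values, factor lists include peaks far above q of 0.05, whereas all H3K4me3 peaks lie below it.

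Regions were built on chromosomes 1 to 19, X and Y and linked to RefSeq genes (GRCm38.p6) by midpoint, to the nearest gene end within 50 kb. Members and the genes behind each share were those of chromosomes 1 to 19. Regions had at least 20 bases and overlapped when they shared a base. The gene table gives no strand, so both ends were used, and RefSeq promoter sequences gave starts for 23 of 37 members. The other 14 have no start here, and regions are called inside or outside a gene only. Neither p-values nor gene set tests were computed, since peak lists hold no counts.

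The members, their classes and the lists were chosen with earlier results of these data known. Values in every library with a peak are given for epithelial members with a shared region or H3K4me3 and for leukocyte, platelet and mesenchymal members with a shared region. 1 member counted throughout is not reported here by name. Other members that are singled out were chosen after their values were seen. Promoter windows to show were to be the top epithelial ones in a shared region over the window, which Itga3 alone met, and the first leukocyte one without a peak. Alternatives covered stricter lists, other links and overlaps, and leaving out libraries. Steps were tested on simulated data, in which 2200 of 2200 links were right and 195 of 200 planted genes were recovered. Python 3.11.15, numpy 2.4.6, pandas 2.3.3 and matplotlib 3.10.9 were used.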

Additional observations from a re-analysis of the deposited data

How the results depend on the processing

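The H3K4me3 counts over all members and over epithelial members stayed within 1.5 times their values under each alternative run. Leukocyte and platelet members with H3K4me3 numbered 2 within 5 kb of an end, against 62.6% of all genes. Mesenchymal members numbered 3 when all 3 libraries were required, against 55%. Leaving out each library in turn, with both others required, gave 21 members with H3K4me3 each time, against 55.2 to 56.6% of all genes. These held 7 epithelial, 1 leukocyte and platelet, and 4 mesenchymal members. At −log10 q of at least 5, NKX2-1 regions were at 2 members (6.31% of all genes), PRDM16 at 11 (25.6%) and PRDM3 at 11 (16.3%). Shared regions were at 0 (2.74%), so also at 0 epithelial, leukocyte and platelet, or mesenchymal members. At q under 0.05, NKX2-1 regions were at 10 members (32.3% of all genes) and shared regions at 0 leukocyte and platelet members (20.3%). With the 20000 strongest peaks of each library, NKX2-1 regions were at 12 members (35.9% of all genes) and PRDM16 at 16 (32.7%). Shared regions were then at 8 (17.6%), with 0 leukocyte and platelet and 0 mesenchymal. Regions in all 3 NKX2-1 libraries were at 8 members (28.9% of all genes) and shared ones at 7 (21.7%), with 4 epithelial, 0 leukocyte and platelet and 0 mesenchymal. With NKX2-1 replicate 1 alone, chosen after seeing the data, NKX2-1 was at 32 members (69.6% of all genes). Shared regions were then at 24 (44.7%), with 3 leukocyte and platelet and 3 mesenchymal. Leaving out libraries in turn gave 11 to 17 members for NKX2-1 (31.8 to 45.1% of all genes), 34 to 37 for PRDM16 (73.1 and 82.8%) and 7 to 15 for shared regions (22.1 to 39.6%). Without an NKX2-1 library both others were required. Without a PRDM16 library the other was used alone, a looser rule, so these PRDM16 counts are those of single libraries. In the classes, leaving out libraries gave shared regions at 4 to 7 epithelial, 0 to 1 leukocyte and platelet, and 0 to 1 mesenchymal members. Over all members, the lowest NKX2-1 and shared values came without NKX2-1 replicate 1. Without replicate 1, and also without replicate 2, the shared counts of leukocyte and platelet and of mesenchymal members were 0. Linking by transcript start where known gave 2 leukocyte and platelet members with a shared region (35.9% of all genes), and requiring 50% overlap gave 0 (32.5%). With H3K4me3 in at least 2 of 3 libraries, chosen after seeing the data, the 4 counts of regions outside H3K4me3 stayed within 1.5 times. Of the values under alternatives, 94 stayed within 1.5 times the main count and 34 did not. Beyond the rules stated here, the cause of these changes was not tested. PRDM3 has 1 library and no replicate check. No paired analysis was possible because peak lists of different antibodies share only a replicate number and the counts come from no test. Peak lists without read counts give no depth, so the lack of a peak does not show the lack of binding.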
